A study of Mus musculus with 6 samples.

Results

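The endoplasmic reticulum (ER) genes described here are 34 genes for chaperones, disulfide isomerases, ER-associated degradation (ERAD), stress sensors and the translocon, chosen by name out of the 49548 genes in the deposited table. They were measured by 3′ mRNA sequencing of synovial fibroblasts (SFs), the fibroblasts of the joint lining, cultured from the ankle joints of hTNFtg mice. These mice carry a human TNF transgene and develop a spontaneous polyarthritis, and all 6 libraries carry the same transgene, so no wild-type control enters the comparison. Of these libraries, 3 came from untreated hTNFtg SFs and 3 from hTNFtg SFs given 500 μM amisulpride for 48 hours. The study describes the mice as having established disease, and its methods state that CD45+ cells were depleted in culture. Amisulpride is a neuroleptic that blocks dopamine receptors, and the study tested whether it quiets the inflammatory program of these cells.

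Proteins that enter the ER are folded by the Hsp70 chaperone BiP and its partners, by the lectins calreticulin and calnexin, and by protein disulfide isomerases. Proteins that fail to fold are passed back to the cytosol and destroyed through ERAD. When unfolded proteins build up, the sensors IRE1, ATF6 and PERK start the unfolded protein response, in which ATF6 and XBP1 raise transcription of chaperone and ERAD genes while PERK acts through ATF4 and CHOP. SFs secrete large amounts of collagen and other matrix proteins, all of which pass through this machinery.

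ATF6 and XBP1 act through short promoter elements. The ER stress response element (ERSE) is a CCAAT box and a CCACG box with 9 free bases between them, ERSE-II is ATTGG and CCACG with 1 free base between them, and the unfolded protein response element (UPRE) is TGACGTGG. Both strands of the RefSeq promoters (GRCm38.p6, from 250 bases before to 50 bases after each annotated start) were searched, and 27 of the 34 members had a promoter in that table. An ERSE stood in 9 of these 27 members (33.3%), against 37 of 27025 genes in the table (0.137%). ERSE-II stood in 2 members (7.41%, against 0.0444% of genes) and UPRE in 1 member (3.7%, against 0.714%), and 12 of 27 members (44.4%) had at least 1 of the 3 elements, against 0.884% of genes. No element of one kind overlapped an element of another kind.

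Many members are textbook targets of ATF6 and XBP1, so these shares describe the list and are no test of it. The elements are shown because they are the sequences through which that control is known to act. Each is printed from its CCAAT or ATTGG end with 5 bases on either side, and the capitals mark the fixed letters of the element (free bases in lower case).
Hspa5: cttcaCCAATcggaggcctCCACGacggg
Hsp90b1 (far element): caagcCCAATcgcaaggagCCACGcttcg
Hsp90b1 (near element): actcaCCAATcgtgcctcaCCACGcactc
Calr: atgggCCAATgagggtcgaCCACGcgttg
Canx: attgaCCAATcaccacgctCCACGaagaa
Creld2: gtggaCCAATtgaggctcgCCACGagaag
Dnajc3: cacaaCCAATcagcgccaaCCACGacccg
Pdia6: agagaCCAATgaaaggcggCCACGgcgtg
Syvn1: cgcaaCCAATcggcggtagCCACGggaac
Derl3: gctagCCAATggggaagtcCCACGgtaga
Herpud1 (ERSE-II): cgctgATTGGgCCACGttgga
Dnajb11 (ERSE-II): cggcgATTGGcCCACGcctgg
Txndc5 (UPRE): gccgcTGACGTGGcgcta

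The Hspa5 ERSE lay at chr2:34772025-34772043 on the plus strand, and its first base was 65 bases upstream of the RefSeq start. The gene annotation of the deposited table places the start of Hspa5 further upstream, at base 34771970, so by that annotation the element lies inside the gene. Hsp90b1 was the only member with a pair of exact ERSE matches in the window, which began 212 and 107 bases upstream and faced opposite ways. Elements with other letters in a box were not searched for. The Hspa5 window, for example, also holds a CCAAT box with CCAAC in place of CCACG after 9 bases. The ERSEs of Calr, Creld2 and Derl3 and the near element of Hsp90b1 ran against the direction of their gene, and the other 6 ran with it. The ERSE-II of Dnajb11 was the only element past the RefSeq start, beginning 7 bases downstream. By the annotation of the deposited table, the UPRE of Txndc5 also lies inside its gene, which starts at base 38528824 on the minus strand. Txndc5 had 3 RefSeq promoters, and the UPRE stood in only 1 of them. A match of letters is a description of the window and does not show that a factor binds there.

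**Figure D1:**
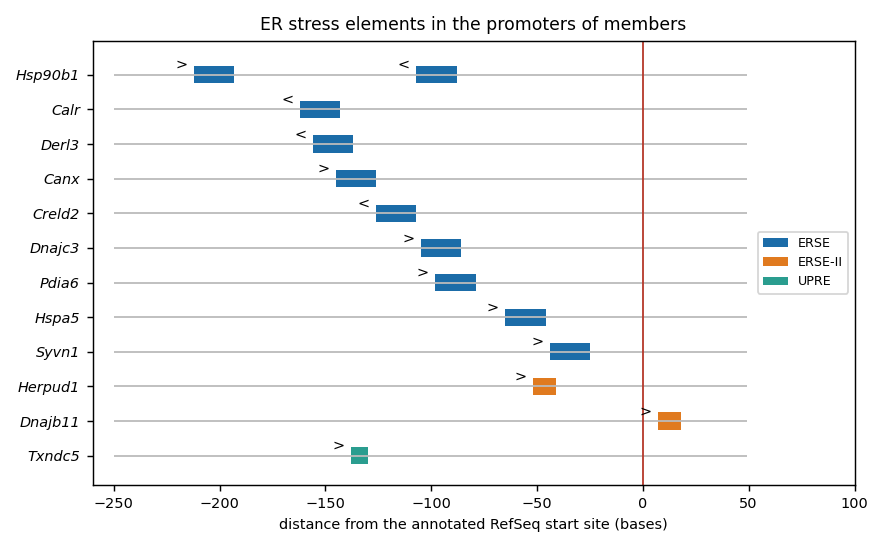
Positions of the 3 kinds of element in the promoters of the 12 members that hold one. The horizontal axis is the distance in bases from the annotated RefSeq start site (red line), the grey lines are the 300-base windows, the bars are the elements and the arrowheads give their direction relative to the gene. All elements lie upstream of the start except that of Dnajb11, and the ERSEs begin between 212 and 44 bases upstream.

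The values are normalised counts, which are read counts per gene after the authors' scaling, with 1 factor for each library, and rounding. Library totals ran from 3832980 to 4504242 normalised counts, and 16851 to 18364 genes were above 0. The steps between low values gave approximate depths of 2.52M to 4.71M reads for 5 libraries, with amisulpride replicate 3 the shallowest, and no estimate for untreated replicate 1. Amisulpride replicate 3 stood apart: it was over 2 times as high as every other library for 478 of 12614 genes tested (3.79%), against 9 to 80 genes in each of the other 5. The SF label was checked against markers: all 14 fibroblast markers were present, with summed values of 51783 to 75161 in untreated and 61922 to 112868 in amisulpride libraries. All 16 myeloid markers were also present, at sums of 3144 to 6293 and 3021 to 5621, and osteoclast markers (6 of 8 tested) summed to 1904 to 4168 and 735 to 2399. Pericyte and smooth muscle markers summed to 253 to 399 and 192 to 274. In limma, 3 osteoclast, 2 myeloid, 1 fibroblast (Prg4, log2 fold change -0.92) and 1 pericyte marker (Mcam, -1.37) had an unadjusted p under 0.05, all lower with amisulpride. In the limma fit with the replicate number as a block, further markers had an unadjusted p under 0.05. The fibroblast markers Col1a2 and Col3a1 and the myeloid markers Adgre1 and C1qb were higher there. Lum and Pdpn (fibroblast) and Ptprc and Ctss (myeloid) were lower. Endothelial markers summed to 4 to 14 and 2 to 17, with Cdh5 and Tie1 at 0 in every library and Tek at 1 to 12. Of the T and NK cell markers, Cd3e, Cd3g, Cd8a and Nkg7 were at 0 throughout, Cd4 and Trac were at 0 to 6, and Cd3d was at 11 to 33. The B cell markers Cd79a, Cd79b, Ms4a1 and Ighm were at 0 in every library, while Sdc1, a plasma cell marker that other cells also express, was at 582 to 1147. In bulk RNA, fewer cells of a type cannot be told from less RNA per cell, and the part of RNA from other cells in the results below was not tested.

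In the limma fit of all 6 libraries without a replicate block or library weights, amisulpride moved no single member past a threshold. Most members were a little higher. Of the 34 members, 33 passed the filter of at least 10 normalised counts in at least 3 of the 6 libraries. None of the 33 reached the study's thresholds, a log2 difference of 1 or more either way together with an unadjusted p under 0.05. Of all genes tested 5.7% did, 2.69% higher and 3.01% lower. The number of members with an unadjusted p under 0.05 in limma was 0, against 10.9% of all genes (5.11% higher and 5.77% lower). The number with an adjusted p under 0.05 was also 0, against 0.285% of all genes (0.0951% higher and 0.19% lower). Unadjusted p-values of the members ran from 0.069 to 0.999 and adjusted p-values (limma, Benjamini-Hochberg over all 12614 genes) from 0.504 to 0.999. The median log2 fold change of the members was 0.27, against 0.00 over all genes tested. Of the 33, 28 (84.8%) were above 0, against 50.1% of all genes. In the lists described further below, 61.5% of the related genes and 63.3% of the PERK, ATF4 and CHOP genes were above 0. Of the cytosolic heat shock genes 30.4% were.

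The error of these values leaves room for moderate change. The 95% confidence interval of the log2 fold change lay between -1 and 1 for 22 of the 33 members, reached 1 for 10 and reached -1 for 1 (Hyou1). Its median half-width was 0.57, so for a typical member an estimate smaller than that did not reach an unadjusted p under 0.05 in this fit. In the limma fit with the replicate number as a block, Dnajb11 and Sil1 passed the unadjusted threshold of 0.05 and both were higher. Each rested on amisulpride replicate 2, with 1835 normalised counts for Dnajb11 and 558 for Sil1, against at most 311 and 236 elsewhere. Of all genes, 7.14% were higher and 7.43% lower in that fit, 14.6% in all. The unadjusted p-values of Dnajb11 and Sil1 there were 0.0262 and 0.0426 and their adjusted p-values (limma) 0.258 and 0.319.

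**Figure D2:**
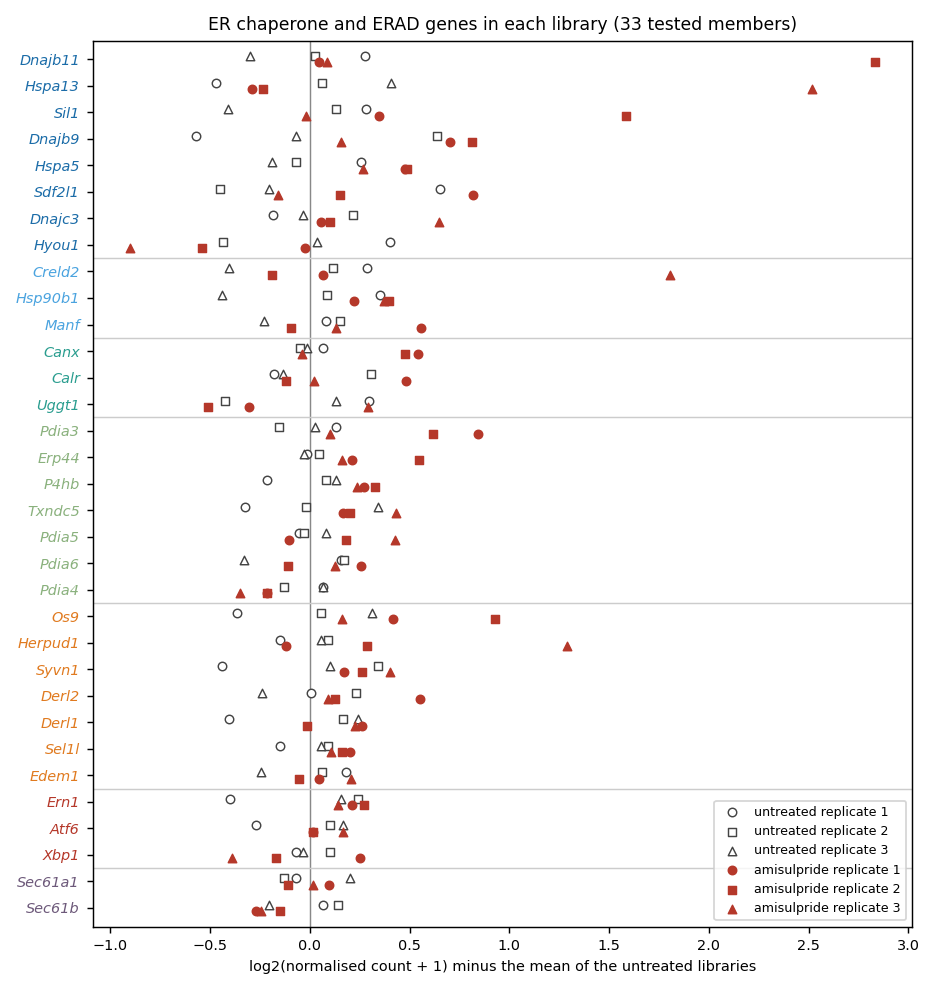
Each tested member in each library, by role. The horizontal axis is log2(normalised count + 1) minus the mean of the 3 untreated libraries, open symbols are untreated and red symbols amisulpride libraries, and the symbol shape is the replicate number. The groups overlap for all tested members except Hspa5, P4hb, Erp44, Sel1l and Pdia4, and the 5 red symbols furthest to the right belong to Dnajb11, Hspa13, Creld2, Sil1 and Herpud1, each in 1 library.

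Across libraries, the members together took 1.249, 1.233 and 1.076% of all normalised counts in the untreated libraries and 1.498, 1.469 and 1.199% in the amisulpride libraries. The highest untreated share was above the share of amisulpride replicate 3, so the groups overlapped. Hspa5 alone supplied 0.564, 0.468 and 0.419% in the untreated and 0.662, 0.668 and 0.501% in the amisulpride libraries. Measured by the median over members of each library's log2 distance from the untreated mean, the untreated libraries were at -0.01, 0.09 and -0.01 and the amisulpride libraries at 0.21, 0.15 and 0.16. The same median over all genes lay between -0.01 and 0.02 in every library.

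Within replicate numbers, amisulpride was higher for 24 of 33 members in replicate 1 (72.7%), 17 of 33 in replicate 2 (51.5%) and 23 of 33 in replicate 3 (69.7%). Over all genes tested the shares were 49.2, 48.1 and 48.8%. The lean towards higher values was thus seen in replicates 1 and 3 and hardly in replicate 2. Without amisulpride replicate 3 the median of the members was 0.18 and 25 of 33 were above 0. In that fit 6 members had an unadjusted p under 0.05, all higher (Dnajb9, Dnajb11, Sil1, Canx, Pdia3 and Os9), against 6.19% of all genes called higher. No member had an adjusted p under 0.05 in it (lowest 0.193, Pdia3, limma). Without untreated replicate 2 (Dnajb9) 1 member was called higher, against 4.56% of all genes, and without amisulpride replicate 1 (Dnajb11 and Herpud1) 2 were, against 6.16%. With limma's weights per library, 3 were (Dnajb11, Sil1 and Pdia3), against 6.71% of all genes.

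A set of 4 members had all 3 amisulpride values above all 3 untreated values (Hspa5, P4hb, Erp44 and Sel1l), where 7.8% of all genes did. A single member had them all below (Pdia4), where 8.66% of all genes did. These 5 are given with the other members of their role.

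The Hsp70 system of the ER comprised 8 members, all tested, and 7 of 8 were above 0 (median log2 fold change 0.48). Hspa5 (mm10 chr2:34771970-34777547, plus strand) encodes BiP, the ER Hsp70 that binds unfolded chains and holds the stress sensors inactive. It had 22460, 17928 and 16469 normalised counts in the untreated libraries and 26112, 26294 and 22577 in the amisulpride libraries. The lowest amisulpride value was just above the highest untreated value. The difference on the log2 scale was 0.41 ± 0.30 (SE, n = 3 per group), or 1.33-fold, with a 95% confidence interval of -0.26 to 1.07 and an adjusted p of 0.672 (limma). After quantile normalisation it was 0.22.

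Dnajb11 encodes ERdj3, a J-domain partner that brings unfolded proteins to BiP. Its normalised counts were 311, 261 and 208 in untreated libraries and 265, 1835 and 272 with amisulpride. One library, amisulpride replicate 2, was 5.9 times as high as the highest of the other 5, and the remaining amisulpride values lay within the untreated range. Its log2 fold change of 0.99 ± 0.60 (SE) was the highest of the members, with a 95% confidence interval of -0.33 to 2.30. Without amisulpride replicate 2 it was 0.07.

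Dnajb9 encodes ERdj4, a J-domain protein that also restrains IRE1. It had 227, 526 and 321 normalised counts in untreated and 549, 593 and 376 in amisulpride libraries. The groups overlapped only through untreated replicate 2, which exceeded amisulpride replicate 3. Its log2 fold change was 0.56 ± 0.33 (SE) with an unadjusted limma p of 0.115. Leaving out untreated replicate 1 gave 0.27, and leaving out untreated replicate 2 gave 0.88, with an unadjusted p of 0.0221 and an adjusted p of 0.481 there (limma).

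Sil1 and Hspa13 were singled out after their values were seen, because 1 library carried each. Sil1, a nucleotide exchange factor that resets BiP, had 225, 203 and 139 normalised counts in untreated and 236, 558 and 183 in amisulpride libraries. Amisulpride replicate 2 was 2.36 times the highest other library, and the log2 fold change of 0.64 was 0.17 without it. Hspa13, a small Hsp70-like ATPase of microsomes, had 66, 96 and 122 and then 75, 78 and 530, with amisulpride replicate 3 at 4.34 times the highest other library. Hspa13 had a log2 fold change of 0.67 with all libraries and -0.26 without amisulpride replicate 3.

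The other 3 members of this role had log2 fold changes from -0.49 to 0.27. Hyou1, the large Hsp70-related exchange factor of BiP, was the lowest of all members at -0.49 ± 0.31 (SE), with an unadjusted p of 0.146 (limma). Its groups overlapped, with mean normalised counts of 201 ± 57.0 in untreated and 143 ± 44.7 in amisulpride libraries (SD, n = 3). Dnajc3 (p58IPK) and Sdf2l1, a partner of ERdj3, were both at 0.27.

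**Figure D3:**
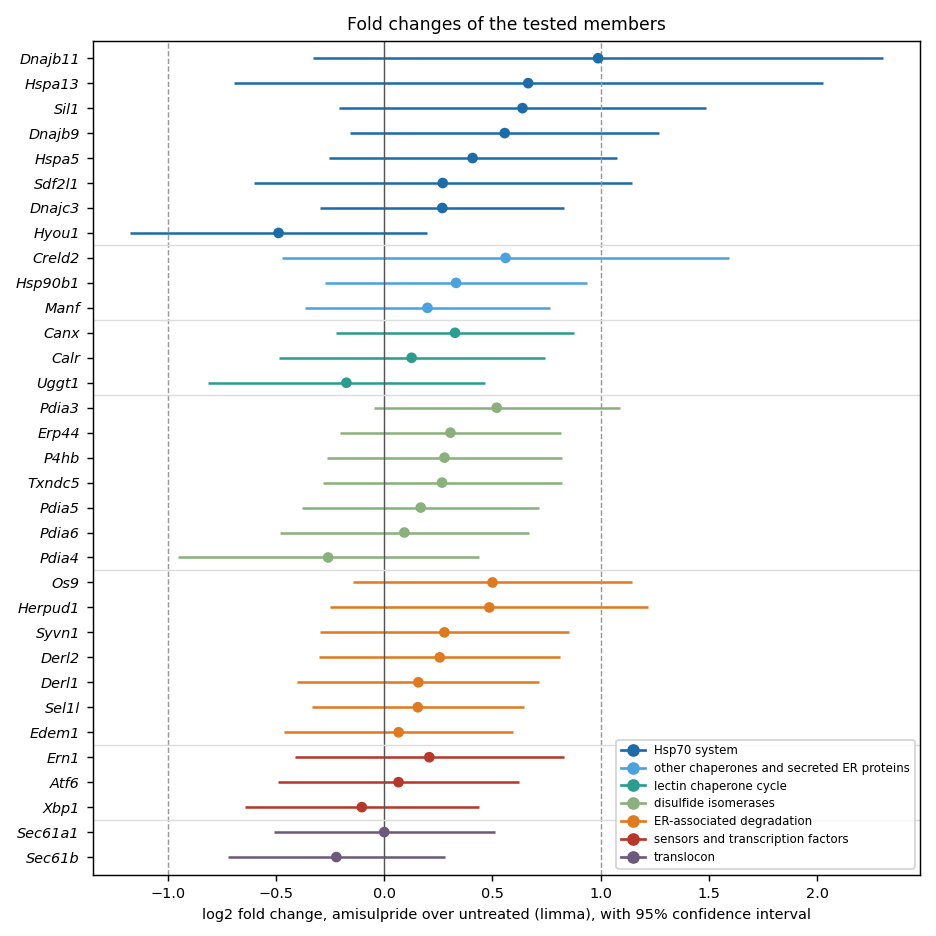
Log2 fold change of each tested member, amisulpride over untreated, with its 95% confidence interval from limma, coloured and grouped by role. Dashed lines mark a log2 fold change of -1 and 1. Every interval includes 0, and the widest belong to Dnajb11 and Hspa13.

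Among the other chaperones, all 3 members were above 0 and none reached the threshold. Hsp90b1 encodes GRP94, the Hsp90 of the ER. It had 3987, 3314 and 2304 normalised counts in untreated and 3647, 4117 and 4046 in amisulpride libraries, a log2 fold change of 0.33 ± 0.28 (SE). Untreated replicate 1 lay in the amisulpride range and the other untreated values lay below it, replicate 3 the lowest. The log2 fold change was 0.11 without untreated replicate 3, 0.51 without untreated replicate 1 and 0.19 after quantile normalisation. An overlapping transcript on the same strand, Gm15344, was listed at up to 372 and may share reads with it.

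Manf encodes a small BiP-binding protein that is secreted on ER calcium loss. It was at 1185, 1241 and 953 in untreated and 1649, 1049 and 1228 with amisulpride, a log2 fold change of 0.20 ± 0.26 (SE). Only amisulpride replicate 1 was above the untreated range. Manf overlaps Rbm15b on the same strand (up to 310 normalised counts) and, at its 3′ end, Vprbp on the opposite strand (up to 81). Whether the counting used strand is not given in the sources used here, so such reads cannot be told apart.

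Creld2, a secreted ER stress-responsive protein with thioredoxin-like motifs, had 70, 62 and 43 normalised counts in untreated and 60, 50 and 202 in amisulpride libraries. Amisulpride replicate 3 was 2.89 times the highest other library, and the others lay within the untreated range. Creld2 had a log2 fold change of 0.56 with all libraries and -0.06 without that library.

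In the lectin chaperone cycle, which holds glycoproteins until they fold, log2 fold changes ran from -0.17 to 0.33. Calr (calreticulin) had 3774, 5285 and 3894 normalised counts in untreated and 5962, 3923 and 4323 in amisulpride libraries, a log2 fold change of 0.13 ± 0.28 (SE). Its amisulpride values lay on both sides of the highest untreated value. A pseudogene, Calr-ps, was listed at up to 112 and may take a share of its reads.

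Canx (calnexin, the membrane-bound partner) had 1664, 1537 and 1577 normalised counts in untreated and 2320, 2216 and 1550 in amisulpride libraries. The untreated values were close together, 2 amisulpride libraries were well above them and replicate 3 was among them. On the log2 scale its change was 0.33 ± 0.25 (SE, adjusted p = 0.687, limma) with all libraries and 0.51 without amisulpride replicate 3, where the unadjusted p was 0.0453 and the adjusted p 0.378.

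Uggt1, the folding sensor that sends glycoproteins back to the lectins, had 1323, 800 and 1177 normalised counts in untreated and 871, 755 and 1317 in amisulpride libraries. The groups overlapped over nearly their whole range, and the log2 fold change was -0.17 ± 0.29 (SE). The microRNA gene Mir6897 lies inside Uggt1 on the same strand and was listed at up to 1288, so reads of this locus can be counted for both.

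Of the 7 disulfide isomerases, 6 were above 0, and their median log2 fold change was 0.27. P4hb (chr11:120560298-120573253, minus strand) encodes protein disulfide isomerase itself, which is also the β subunit of collagen prolyl 4-hydroxylase. Its normalised counts were 3186, 3907 and 4039 in untreated and 4453, 4636 and 4347 in amisulpride libraries. The groups did not overlap, and the amisulpride values were the tighter ones. The log2 fold change was 0.28 ± 0.25 (SE), with a 95% confidence interval of -0.27 to 0.82 and an adjusted p of 0.732 (limma). It was 0.17 without untreated replicate 1 and 0.15 after quantile normalisation.

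Pdia3 encodes ERp57, which works with calnexin and calreticulin on glycoproteins. It had 497, 407 and 462 normalised counts in untreated and 814, 696 and 487 in amisulpride libraries. Replicates 1 and 2 with amisulpride were above every untreated value, and replicate 3 was just under the highest. Its unadjusted p of 0.069 was the lowest of the members (log2 fold change 0.52 ± 0.26, SE, adjusted p = 0.504, limma). It was 0.73 without amisulpride replicate 3, with an unadjusted p of 0.00848 and an adjusted p of 0.193.

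Pdia6 had 3464, 3504 and 2472 normalised counts in untreated and 3718, 2884 and 3396 in amisulpride libraries, a log2 fold change of 0.09 ± 0.26 (SE). Erp44 (chr4:48193323-48279558, minus strand), which retains the oxidase ERO1 in the early secretory pathway, had 287, 299 and 284 and then 336, 424 and 324. Its untreated values were close together and all 3 amisulpride values lay above them. For Erp44 the log2 fold change was 0.31 ± 0.23 (SE), with an adjusted p of 0.684 (limma), and 0.19 without amisulpride replicate 2.

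Pdia4 (ERp72; chr6:47796141-47813430, minus strand) was the only member with all amisulpride values below the untreated ones, at 39, 34 and 39 in untreated and 32, 32 and 29 with amisulpride. These are low values, and the log2 fold change was -0.26 ± 0.32 (SE, adjusted p = 0.804, limma). The remaining 2 isomerases, Txndc5 and Pdia5, were at 0.27 and 0.17.

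All 7 tested ERAD members were above 0, with log2 fold changes from 0.07 to 0.50 and a median of 0.26. Herpud1 encodes the membrane protein HERP, which organises the degradation complex around the ligase HRD1. It had 659, 781 and 762 normalised counts in untreated and 673, 893 and 1793 in amisulpride libraries. Amisulpride replicate 3 was 2.01 times the highest other library, and replicate 1 lay among the untreated values. The log2 fold change was 0.49 ± 0.33 (SE). It was 0.79 without amisulpride replicate 1, with an unadjusted p of 0.039 and an adjusted p of 0.349 (limma), and 0.08 without amisulpride replicate 3.

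Sel1l (chr12:91806043-91849157, minus strand), the adaptor of HRD1, had 573, 679 and 663 normalised counts in untreated and 732, 711 and 685 in amisulpride libraries. The groups did not overlap, though untreated replicate 2 and amisulpride replicate 3 were nearly equal. Its log2 fold change was 0.16 ± 0.22 (SE), with an adjusted p of 0.837 (limma), and 0.08 without untreated replicate 1. Derl1, a rhomboid-like protein of the retrotranslocation channel, had 418, 622 and 656 and then 665, 550 and 648, a log2 fold change of 0.16 ± 0.25 (SE). It stood at -0.05 without untreated replicate 1, its low library.

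Os9, a lectin that hands glycoproteins to HRD1, had the highest log2 fold change of this role at 0.50 ± 0.29 (SE, adjusted p = 0.579, limma). Its values were 99, 133 and 159 in untreated and 171, 244 and 143 in amisulpride libraries, so amisulpride replicate 3 fell between the untreated ones. Without that library it was 0.67, with an unadjusted p of 0.0391 and an adjusted p of 0.356 (limma). Without amisulpride replicate 2 it was 0.29 and without untreated replicate 1 it was 0.32. Syvn1, the gene of HRD1, was at 0.28, Derl2 at 0.26 and Edem1, which recognises trimmed mannose chains, at 0.07. Syvn1 and Derl2 each overlap a gene on the opposite strand, Mrpl49 (up to 111) and Mis12 (up to 118).

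Derl3, a Derlin and a target of XBP1, was the member that failed the filter. It was listed at 0, 1 and 0 in untreated and 4, 4 and 0 in amisulpride libraries. Here 3 reads, about the limit that a count of 0 allows, were worth 2.50 to 5.37 normalised counts in the 5 libraries with an estimate. That limit was 2.69 in amisulpride replicate 1 and 4.01 in amisulpride replicate 2. The value of 4 was thus above the limit in replicate 1 and about at it in replicate 2. With so few reads, no fold change is given.

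**Figure D4:**
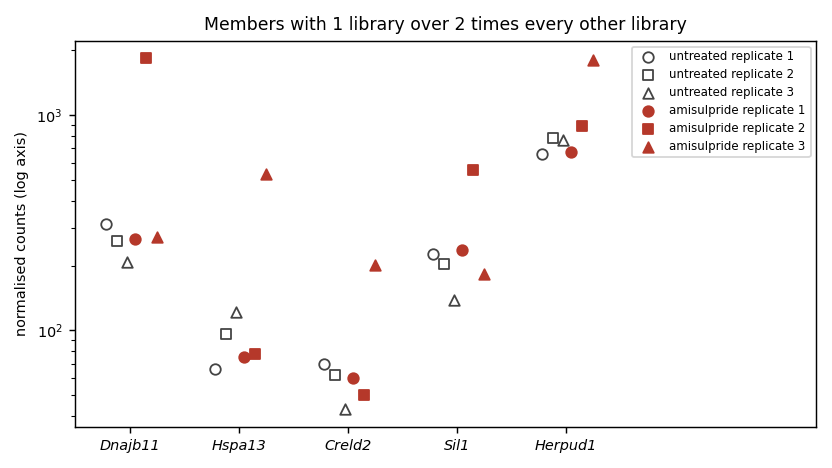
Normalised counts (log axis) of the 5 members for which 1 library was over 2 times as high as each of the other 5. Open symbols are untreated and red symbols amisulpride libraries, with the shape giving the replicate. The high point is amisulpride replicate 2 for Dnajb11 and Sil1 and amisulpride replicate 3 for Hspa13, Creld2 and Herpud1.

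These 5 members were 2 of 33 (6.06%) in amisulpride replicate 2 and 3 of 33 (9.09%) in amisulpride replicate 3. Among all genes tested such excess was found in 0.634% and 3.79% of genes in those libraries. The other 28 tested members included 23 above 0. Dnajb11, Hspa13 and Sil1, with the highest fold changes of the members, thus each rested on 1 library.

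None of the 3 genes for sensors and their transcription factors reached a threshold. Xbp1, whose product drives ERAD and chaperone genes once its mRNA is spliced, had 703, 790 and 720 normalised counts in untreated and 876, 655 and 562 in amisulpride libraries. Amisulpride values lay on both sides of the untreated range, and the log2 fold change was -0.10 ± 0.25 (SE, adjusted p = 0.908, limma). Counts from 3′ ends do not separate spliced from unspliced Xbp1.

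Ern1, the gene of IRE1α, which carries out that splicing, had 56, 88 and 83 normalised counts in untreated and 86, 90 and 82 in amisulpride libraries, a log2 fold change of 0.21 ± 0.28 (SE, adjusted p = 0.829, limma). Untreated replicate 1 was the low library, and without it the log2 fold change was 0.0079. Atf6, the membrane-tethered factor released by cleavage, had 104, 135 and 141 and then 127, 127 and 141, a log2 fold change of 0.07 ± 0.25 (SE, adjusted p = 0.946, limma). The 95% confidence intervals of these 3 genes lay between -0.64 and 0.83.

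Of the translocon, the pore through which chains enter the ER, Sec61a1 had 1293, 1241 and 1560 normalised counts in untreated and 1451, 1259 and 1371 in amisulpride libraries, a log2 fold change of 0.00 ± 0.23 (SE). Sec61b had 1194, 1259 and 990 and then 947, 1028 and 965, a log2 fold change of -0.22 ± 0.23 (SE, adjusted p = 0.769, limma). All but 1 of its amisulpride values were below the lowest untreated value.

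Members with and without an ERSE both had medians above 0. Over the 8 tested members with an ERSE the median log2 fold change was 0.30, and all 8 were above 0. The 18 tested members whose promoter was searched and held none had a median of 0.26, with 14 above 0. All 14 tested genes with an ERSE in the table include these 8 members, and 12 of the 14 were above 0, with a median of 0.30. Of the 6 that are not members, 4 were above 0 and 2 below, with a median of 0.46. Among the 8657 tested genes with a promoter, 48.7% were above 0. None of the 14 had an unadjusted p under 0.05 in limma, against 11.3% of the 8657. The difference between members with and without the element was not tested.

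Some genes of related lists passed a threshold, at an unadjusted share close to that of all genes. The 4 further lists held ER genes and related regulators that are not members (122 genes, 117 tested). Of these, 9 were higher and 2 lower at an unadjusted p under 0.05 (9.4%, against 10.9% of all genes). Their median log2 fold change was 0.08. The study's thresholds were reached by 4 of the 117, all higher, where 5.7% of all genes reached them. Ero1l encodes ERO1α, the oxidase that recharges protein disulfide isomerase and that Erp44 retains in the ER. It rose from 625, 656 and 726 to 1751, 1850 and 1714 normalised counts. Its log2 fold change was 1.41 ± 0.22 (SE), and its adjusted p of 0.0277 (limma) was the lowest of these lists. No amisulpride library came near an untreated one, although the adjusted p lay between 0.0773 and 0.169 in the fits that left out untreated replicate 1, 2 or 3 or amisulpride replicate 1 or 2, and was 0.0112 without amisulpride replicate 3. With no variance trend in the fit it was 0.0883.

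Cdnf, a relative of Manf, rose from 29, 18 and 33 to 89, 118 and 72 normalised counts (log2 fold change 1.78 ± 0.34, SE). It passed the study's thresholds with an adjusted p of 0.0623 (limma), which was 0.0127 with the replicate block. Ppib, the ER prolyl isomerase cyclophilin B that acts on collagen, rose from 579, 983 and 1167 to 1691, 2238 and 1730 (2.14-fold, with an SE of 0.30 on the log2 scale), with an adjusted p of 0.172 (limma) that was 0.0403 with the block. Cnpy4, a Canopy-family protein of the ER, fell from 205, 180 and 174 to 83, 115 and 109 (log2 fold change -0.87 ± 0.26, SE, adjusted p = 0.21, limma). Folding factors in all had 4 higher and 1 lower of 35 tested at an unadjusted p under 0.05 (14.3%).

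Among 32 further ERAD genes, Sel1l3 was higher (14, 1 and 0, then 45, 19 and 5 normalised counts) and Edem3 lower (261, 211 and 254, then 245, 108 and 109), with adjusted p-values of 0.413 and 0.437 (limma), together 6.25% of the list. Sel1l3 no longer had an unadjusted p under 0.05 without untreated replicate 2 or 3, and Edem3 without any single library other than amisulpride replicate 1. Among 36 genes of translocation, signal peptidase and N-glycosylation, Ost4 and Ddost, subunits of the oligosaccharyltransferase, were higher by 0.92 ± 0.29 and 0.62 ± 0.23 on the log2 scale (SE), with adjusted p-values of 0.242 and 0.332 (limma), together 5.56% of the list. Ost4 had 534, 542 and 850 and then 962, 1073 and 1621 normalised counts, and Ddost had 525, 468 and 405 and then 701, 746 and 687, with no overlap in either. Ddost no longer had an unadjusted p under 0.05 without untreated replicate 2 or 3 or amisulpride replicate 2. A list of 14 tested genes held those of ATF6 processing together with transcription factors and other regulators. In it, Tmbim6 and Tsc22d3 (14.3% of the list) had log2 fold changes of 0.85 and 0.59 with unadjusted p-values of 0.0491 and 0.0468 (limma). Neither is a gene of ATF6 processing. Mbtps1 and Mbtps2, which encode the proteases that cleave ATF6, were at -0.10 and 0.25, with unadjusted p-values of 0.739 and 0.426 (limma). Tsc22d3 had an unadjusted p of 0.0557 with the replicate block (limma). Tmbim6 rested on amisulpride replicate 3 (2452, against at most 850 elsewhere) and was at 0.32 without it.

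The arm of PERK, ATF4 and CHOP had more called genes than the members. Of 30 tested genes, 6 were higher and 2 lower at an unadjusted p under 0.05 (26.7%, against 10.9% of all genes). The median log2 fold change of this list was 0.10. Trib3, a pseudokinase target of CHOP, rose from 105, 184 and 345 to 405, 614 and 587 normalised counts (log2 fold change 1.48 ± 0.38, SE, adjusted p = 0.154, limma, and 0.00899 with the replicate block). Atf3 rose from 7, 8 and 16 to 32, 32 and 27, and Ddit3, the gene of CHOP, from 253, 221 and 214 to 480, 695 and 306. Their log2 fold changes were 1.55 ± 0.45 and 1.03 ± 0.30 (SE), with adjusted p-values of 0.208 and 0.212 (limma). Mthfd2 and Cebpb were lower, with log2 fold changes of -0.76 and -0.65, and Cebpb no longer had an unadjusted p under 0.05 without untreated replicate 1 or 2 or amisulpride replicate 2 or 3. The difference between this list and the members was not tested. Of 23 cytosolic heat shock genes, none was higher and Chordc1, a cochaperone of Hsp90, was lower (log2 fold change -0.90 ± 0.25, SE, adjusted p = 0.192, limma), with a median of -0.12.

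**Figure D5:**
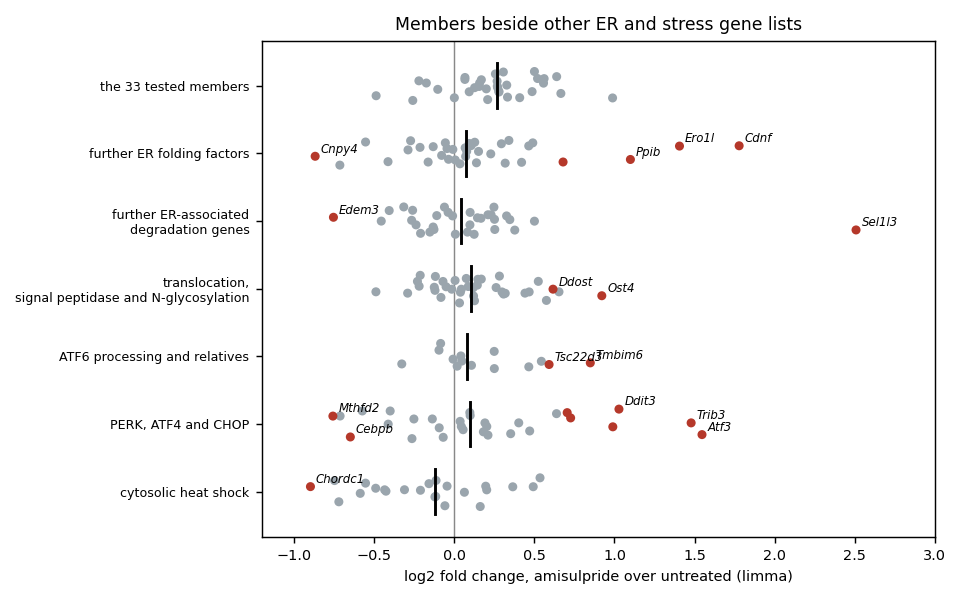
Log2 fold changes of the tested members beside 4 further lists of ER genes and related regulators, the PERK, ATF4 and CHOP arm and cytosolic heat shock genes. Each point is a gene, red points have an unadjusted p under 0.05 in limma, black bars are the list medians, and vertical scatter within a row carries no meaning. The members have no red point and a median of 0.27, and the red points furthest to the right are Sel1l3, Cdnf, Atf3, Trib3 and Ero1l.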

How the data were processed

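3′ mRNA libraries (QuantSeq, Ion Proton) of hTNFtg SFs were compared, 3 untreated and 3 with amisulpride. The methods call them biological replicates. They name a vehicle, whereas the labels say no treatment. Per the labels and methods, the authors aligned reads to mm10 with TopHat2 and Bowtie2, counted reads per gene and normalised with DESeq through metaseqr. The deposited values used here are a score, namely whole-number normalised counts after division by 1 factor per library, and not raw counts, so no count model was fitted. The table's other 12 columns of per-library values (other scales of the same libraries) and its columns of group comparisons (fold changes and p-values) were not used. Names that repeat were resolved to the row of highest mean.

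Values were analysed as log2(value + 1) in limma 3.58.1 (R 4.3.3; empirical Bayes with a variance trend, two-sided, Benjamini-Hochberg over 12614 genes) after keeping genes with at least 10 in at least 3 libraries. Fold changes on this scale understate changes of low genes. limma was tested on simulated data first. Exact permutation of 3 against 3 cannot go below p = 0.1 and was not used. After each gene was centred on its group mean, same-numbered libraries deviated together (r = 0.229, 0.24 and 0.201, against -0.149 to -0.0777 for other pairs). The centring itself makes other pairs negative when same-numbered pairs are positive, so the other pairs are no independent comparison. Because same-numbered libraries deviated together, blocked values are given where they change a call of a member or of a gene named from the other lists. Markers are named where the block changes their unadjusted call. The pairing comes from the replicate numbers in the labels.

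Members and lists were chosen with earlier results of these data known. Values in every library were given for members with a p under 0.05, non-overlapping groups, a sensor role or a failed filter, and for up to 3 of highest mean per role. From other lists, at most 3 genes of lowest p per direction were named. Sil1, Hspa13, Creld2, Canx, Os9 and Hyou1 were named with values where they fell outside that rule, after these were seen. Another 15 settings of the fit (pseudocount, filter, scaling, variance trend, weights, block and single libraries left out) were tried. Depth was estimated from steps between low values, and limits set from it cover counting error only.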

Additional observations from a re-analysis of the deposited data

How the results depend on the processing

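Over 493 alternative values of single members, 460 kept direction and side of the 0.05 threshold, 14 gained an unadjusted p under 0.05, none lost one and 19 changed sign. The sign changes included Hspa13, at 0.67 with all libraries and -0.26 without amisulpride replicate 3, and Creld2, at 0.56 and -0.06. No member had an adjusted p under 0.05 in any alternative (limma). The count with an unadjusted p under 0.05 (0) was 3 with weights per library (Sil1 0.94, Dnajb11 1.39 and Pdia3 0.66), 2 with the replicate block (Sil1 and Dnajb11) and 0 to 6 when single libraries were left out. The count past the study's thresholds (0) was 1 with weights and 0 to 1 without single libraries. Non-overlapping members (5) were 2 after quantile normalisation and 6 to 11 without single libraries, where fewer values are compared. The median (0.27) was 0.20 after quantile normalisation, 0.14 with weights and 0.17 to 0.30 without single libraries. The count above 0 (28), a value added after seeing the data, ran from 25 to 29. The block changed no other call of a member.

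After quantile normalisation Hspa5 was 0.22, Hsp90b1 0.19 and P4hb 0.15. Signs turned for Pdia6 (-0.0495) and Sec61a1 (-0.0364) after quantile normalisation and for Hspa13 (-0.0019), Atf6 (-0.0246) and Sec61a1 (-0.0324) with weights. Without single libraries, Derl1 ran from -0.0456 to 0.28, Atf6 from -0.0687 to 0.15, Sec61a1 from -0.0646 to 0.10, Pdia6 from -0.0719 to 0.19, Edem1 from -0.0547 to 0.16, Sdf2l1 from -0.0033 to 0.60, Calr from -0.0511 to 0.28, Hspa13 from -0.26 to 1.14, Creld2 from -0.0606 to 0.94 and Xbp1 from -0.28 to 0.0401. The causes were not tested. All genes past the study's thresholds (719) were 1313 with no filter and 331 with a filter of at least 50, where the number of genes tested differs. All genes with an adjusted p under 0.05 (36) were 263 with the block, 195 with weights, 66 after quantile normalisation, 57 with a pseudocount of 5 or no filter, and 0 to 120 without single libraries.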

Other observations

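A single library over 2 times as high as each of the other 5 was also found for genes of the further ER lists and of the PERK, ATF4 and CHOP list whose values are not given above. Spcs3, a signal peptidase subunit, had 2158 normalised counts in amisulpride replicate 3 against at most 506 elsewhere, and Krtcap2, a subunit of the oligosaccharyltransferase, had 4801 in that library against at most 1199. From the PERK, ATF4 and CHOP list, Gdf15, a stress-induced secreted factor, had 174 there against at most 71. Nupr1 had 1625 in amisulpride replicate 2 against at most 791, and Psat1, an enzyme of serine synthesis, had 857 in untreated replicate 3 against at most 390. With the replicate block, Nupr1 was called higher and Psat1 lower, with unadjusted p-values of 0.0285 and 0.0169 (limma). Without the block these were 0.0603 and 0.0694.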
